A study of Mus musculus with 6 samples.

Results

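The genes described here are 10 AP-1 and immediate-early genes, *Fos*, *Fosb*, *Fosl2*, *Jun*, *Junb*, *Egr1*, *Ier2*, *Atf3*, *Nr4a1* and *Dusp1*, chosen by name from the 28262 genes of the count table. Each name matched 1 row. RNA-seq was performed on Sertoli cells purified from testes of 20-day-old C57BL/6 mice, with 3 libraries from *Pa1* F/F mice (control), which are labelled as homozygous for the floxed allele, and 3 from *Amh-pa1*-/- mice, which carry that allele together with *Amh-cre*. Cre was driven by the *Amh* promoter, so deletion was directed to Sertoli cells, and any other cell type left in a culture kept its *Pa1*. Per the methods of the study, cells were dissociated enzymatically, cultured without further treatment in a medium with insulin, EGF and transferrin, and washed to remove unattached germ cells. How long they stayed in culture before RNA extraction, and how many mice gave each library, is not given in the sources used here, so p-values measure the spread between these libraries, which may be technical. The comparison asks how the genes of the AP-1 complex, with which the study pairs PA1 through JUN, stood in cells without PA1.

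AP-1 is a dimer of basic leucine zipper proteins. JUN proteins pair with each other or with FOS proteins, while FOS proteins bind DNA only as partners of other zipper proteins, and ATF3 can pair with JUN proteins. Immediate-early genes are transcribed within minutes of a growth factor, stress or handling stimulus by factors already present in the cell, such as SRF with its ternary complex partners and CREB, and their transcripts are short-lived. In Sertoli cells this class of genes is known to respond to FSH and to growth factors.

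To show the regulatory sequence behind these genes, the promoters of 5 members follow, chosen because they span the FOS, JUN and NR4A families and the different patterns described later. RefSeq's promoter windows (GRCm38.p6) run from 250 bases before the start site to 50 bases after it, and 8 of the 10 members were matched; *Egr1* and *Ier2* were not. Each sequence reads 5′ to 3′ on the strand of its gene, and capitals mark the letters TGACG on either strand, the half-site of the CRE bound by CREB and ATF proteins, and the octamer TGACATCA. The windows lie at chr12:85473640-85473939 (+) for *Fos*, chr7:19309996-19310295 (-) for *Fosb*, chr4:95052173-95052472 (-) for *Jun*, chr8:84978699-84978998 (-) for *Junb* and chr15:101266596-101266895 (+) for *Nr4a1*.
Fos: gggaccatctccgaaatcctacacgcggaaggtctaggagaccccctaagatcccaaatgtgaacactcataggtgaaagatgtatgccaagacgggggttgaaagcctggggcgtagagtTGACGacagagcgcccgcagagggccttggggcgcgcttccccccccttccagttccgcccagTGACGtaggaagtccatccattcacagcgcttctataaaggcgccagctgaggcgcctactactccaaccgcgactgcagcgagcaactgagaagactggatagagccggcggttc
Fosb: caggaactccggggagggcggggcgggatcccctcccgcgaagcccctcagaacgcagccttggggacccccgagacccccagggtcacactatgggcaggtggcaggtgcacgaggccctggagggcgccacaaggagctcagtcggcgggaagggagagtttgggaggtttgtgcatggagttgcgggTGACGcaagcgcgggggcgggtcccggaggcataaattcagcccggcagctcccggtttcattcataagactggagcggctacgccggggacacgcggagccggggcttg
Jun: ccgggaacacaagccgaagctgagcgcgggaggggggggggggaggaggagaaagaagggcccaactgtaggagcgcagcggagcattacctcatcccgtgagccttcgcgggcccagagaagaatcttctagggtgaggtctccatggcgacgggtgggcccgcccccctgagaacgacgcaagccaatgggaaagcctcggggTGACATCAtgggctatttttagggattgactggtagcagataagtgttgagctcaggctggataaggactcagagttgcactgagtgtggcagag
Junb: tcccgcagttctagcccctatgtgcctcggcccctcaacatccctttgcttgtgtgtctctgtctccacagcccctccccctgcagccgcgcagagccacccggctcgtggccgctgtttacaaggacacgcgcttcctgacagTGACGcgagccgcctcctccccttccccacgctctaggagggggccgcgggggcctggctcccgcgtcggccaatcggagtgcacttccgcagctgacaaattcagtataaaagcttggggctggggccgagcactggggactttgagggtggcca
Nr4a1: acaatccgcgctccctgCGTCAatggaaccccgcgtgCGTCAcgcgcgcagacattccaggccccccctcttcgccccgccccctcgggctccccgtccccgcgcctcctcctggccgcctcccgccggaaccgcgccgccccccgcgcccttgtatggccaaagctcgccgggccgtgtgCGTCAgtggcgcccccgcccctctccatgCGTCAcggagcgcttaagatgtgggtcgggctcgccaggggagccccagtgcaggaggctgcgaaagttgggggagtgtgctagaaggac
TGACG or its reverse complement was found in 6 of the 8 promoters, all but *Jun* and *Fosl2*, as compared with 20.8% of 32817 promoters and 29.8% of the 13546 promoters of tested genes. This motif was picked after the sequences had been read. *Nr4a1* held 4 copies, the nearest to the start site from -40 to -36, and *Fos* held 2, from -129 to -125 and from -66 to -62. The full CRE, TGACGTCA, which contains the half-site on both strands, was found in *Dusp1* from -143 to -136. It was found in 1.79% of all promoters and 3% of those of tested genes. *Jun* held TGACATCA from -45 to -38, which 3.62% of all promoters and 1.98% of those of tested genes held on either strand. No window of the 8 held the AP-1 site TGACTCA, found on either strand in 5.20% of all promoters, or a CArG box, the site of SRF, found in 1.63%. Among promoters of tested genes the shares were 3.85% and 1.3%. Sites more than 250 bases before the start site were not searched, and the CArG pattern allowed no mismatch. The absence therefore covers these windows only, and *Egr1* and *Ier2* had none.

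*Amh-pa1*-/- replicate 3 stood apart from the other two *Amh-pa1*-/- replicates. The median absolute log2 ratio between replicates 1 and 3 was 0.18 over 10432 well-covered genes, as compared with 0.06 between replicates 1 and 2 over 10311. Over the 10 members it was 1.38 and 0.05. In *Pa1* F/F cells replicates 1 and 3 also lay closer (0.07) than either lay to replicate 2 (0.11 and 0.12), while the median over the members was at most 0.20 in any control pair. Counting noise alone did not cover the distance within either close pair (chi-square per degree of freedom 2.23 and 1.67), and all 6 libraries were kept. Total counts ranged from 13203757 to 16231443, and the lowest count of any member in any library was 145, for *Atf3*. Each member and each gene list is given with and without *Amh-pa1*-/- replicate 3.

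*Junb* and *Ier2* were higher in *Amh-pa1*-/- than in *Pa1* F/F cells, and the other 8 members did not pass the test with all 6 libraries. *Junb* rose 2.45-fold and *Ier2* 1.97-fold. By edgeR's quasi-likelihood test over 14919 tested genes, with Benjamini-Hochberg adjustment, 2 of 10 members had an adjusted p-value under 0.05, as compared with 35.3% of all tested genes. With a log2 fold change of at least 1 also required, *Junb* was the only member called, as compared with 12.0% of all tested genes (5.44% higher, 6.56% lower). The median log2 fold change of the members was 1.02, beside 0.00 over all tested genes. In 5 members (*Fos*, *Junb*, *Egr1*, *Ier2* and *Atf3*) every *Amh-pa1*-/- library lay above every *Pa1* F/F library, as compared with 26.3% of tested genes, and no member lay wholly below (26.1%). Of all tested genes 52.4% did not overlap in either direction. For each of these 5 an exact two-sided permutation test gave p = 0.1, the smallest that 3 against 3 libraries allow.

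Without *Amh-pa1*-/- replicate 3 the picture changed. Setting aside the library that differs most leaves a close pair of *Amh-pa1*-/- libraries. The spread behind the p-values of this fit is therefore smaller, and they can be too low. *Fos*, *Junb*, *Egr1* and *Ier2* were then higher and *Nr4a1* was lower past the same threshold, 5 of 10 members as compared with 43.1% of all tested genes in that fit. The median log2 fold change of the members dropped to 0.27, and the only member called was *Nr4a1*, as compared with 13.5% of all tested genes called in that fit. The estimates for *Fos*, *Egr1*, *Atf3* and *Dusp1* were smaller by more than 1.5 times on the linear scale without this library, and kept their sign.

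**Figure D1:**
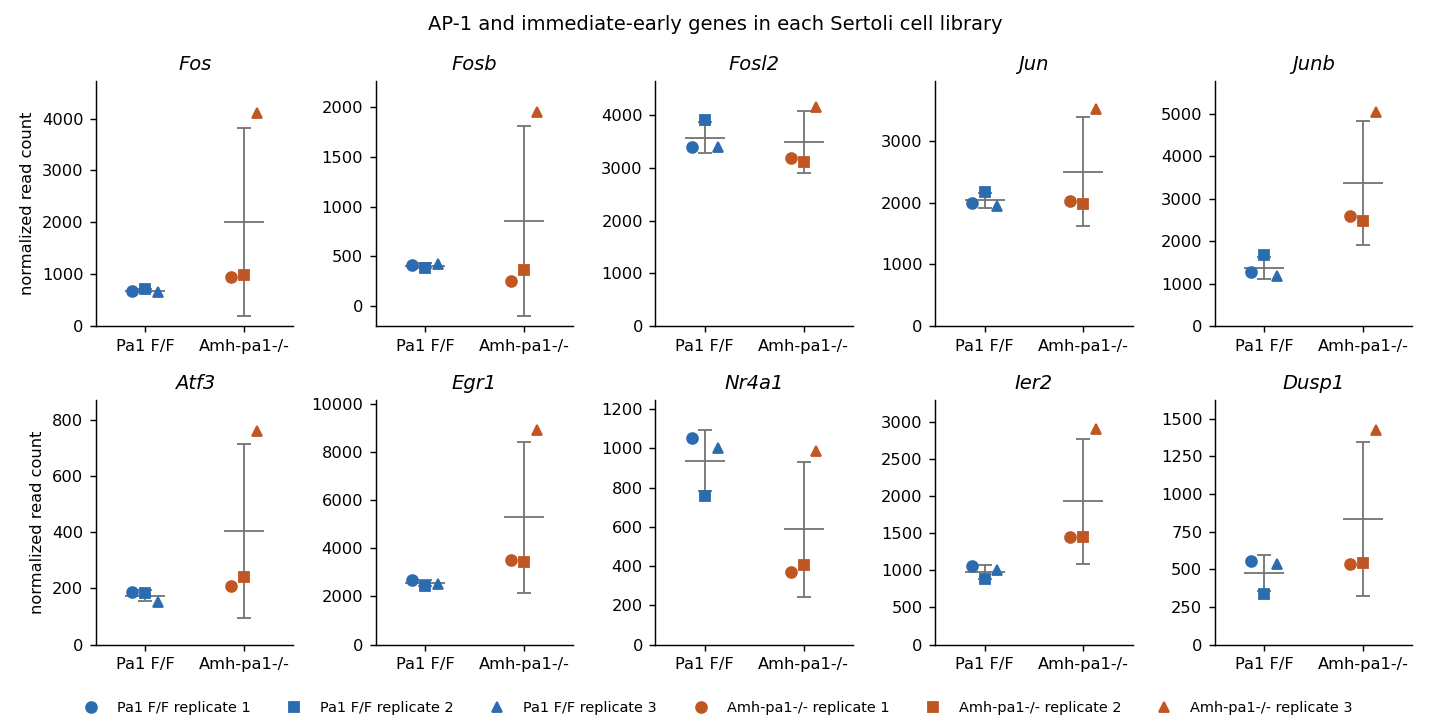
Normalized read count (vertical axis, linear) of each member in the 3 *Pa1* F/F (blue) and 3 *Amh-pa1*-/- (orange) libraries. Marker shape gives the replicate, horizontal lines are means and bars 1 SD (n = 3); *Amh-pa1*-/- replicate 3 is the highest *Amh-pa1*-/- library in all 10 panels, and in the *Fosb*, *Fosl2* and *Nr4a1* panels the other two lie below every control.

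Among the FOS proteins, *Fos* (ENSMUSG00000021250, GRCm38 chr12:85473890-85477273), the founding partner of JUN, had 673, 700.0 and 646 normalized counts across control replicates 1, 2 and 3, and 932, 978 and 4099 across *Amh-pa1*-/- replicates 1, 2 and 3. Control libraries lay within a narrow band and every *Amh-pa1*-/- library lay above it, with replicate 3 at 4.29 times the mean of the other two. Its log2 fold change was 1.57 (standard error 0.58, edgeR, adjusted p = 0.0749), and 0.51 (standard error 0.07, edgeR, adjusted p = 0.00109) without replicate 3, 1.42-fold above the controls.

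*Fosb* (ENSMUSG00000003545, chr7:19302696-19310051), a second FOS protein known for persistent induction in neurons, had 417, 381 and 419.5 normalized counts across control replicates 1, 2 and 3. It had 249.9, 359 and 1957 across *Amh-pa1*-/- replicates 1, 2 and 3. The *Amh-pa1*-/- libraries thus lay on both sides of the controls, 2 below every control and 1 at 4.66 times the highest control. Its log2 fold change was 1.08 (standard error 0.73, edgeR, adjusted p = 0.292) with all libraries and -0.41 (standard error 0.15, edgeR, adjusted p = 0.0695) without replicate 3, so that the sign turned with that library.

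*Fosl2* (ENSMUSG00000029135, chr5:32135801-32157842), which encodes FRA-2, moved least of the FOS genes listed. Its normalized counts stood at 3406, 3911 and 3394 across the controls and 3191, 3117 and 4165 across *Amh-pa1*-/- replicates 1, 2 and 3. The groups overlapped, and the log2 fold change was -0.03 (95% interval from -0.33 to 0.26, edgeR, adjusted p = 0.860), or -0.18 (edgeR, adjusted p = 0.0786) without replicate 3.

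*Jun* (ENSMUSG00000052684, chr4:95049034-95052222), the factor that the study pairs with PA1, had 1997, 2176 and 1947 normalized counts across control replicates 1, 2 and 3. In *Amh-pa1*-/- replicates 1, 2 and 3 it had 2020, 1976 and 3515. Replicates 1 and 2 lay within the range of the controls and replicate 3 stood 1.62 times above the highest control. The log2 fold change was 0.30 (95% interval from -0.23 to 0.82, edgeR, adjusted p = 0.337). Without replicate 3 it was -0.03 (95% interval from -0.16 to 0.11, edgeR, adjusted p = 0.728), so *Jun* transcript did not pass the test in either fit. The antisense gene *Junos* overlaps it, with between 13 and 25 counts per library.

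*Junb* (ENSMUSG00000052837, chr8:84974484-84978718), a JUN protein that is a weaker activator than JUN and can restrain it, had 1275, 1667 and 1181 normalized counts across control replicates 1, 2 and 3. It had 2588, 2468 and 5045 across *Amh-pa1*-/- replicates 1, 2 and 3. All 3 *Amh-pa1*-/- libraries lay above all controls, also with replicate 3 set aside. The means were 1374 ± 258 and 3367 ± 1454 (SD, n = 3 each), the log2 fold change was 1.29 (standard error 0.30, edgeR, adjusted p = 0.0155), and without replicate 3 it was 0.88 (standard error 0.13, edgeR, adjusted p = 0.00220). Short of the fold threshold there, *Junb* was still past the threshold on the adjusted p-value. It lost that call when *Pa1* F/F replicate 1 or 3 was left out (edgeR, adjusted p = 0.0610 and 0.0626), or when the libraries of each close pair were summed (0.0848). *Prdx2*, a peroxiredoxin gene on the other strand that overlaps *Junb*, had from 5202 to 6188 counts in control and from 4021 to 4789 in *Amh-pa1*-/- libraries, and shared reads cannot be told apart because the strand setting of the counting is not given.

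*Atf3* (ENSMUSG00000026628, chr1:191170296-191218039), a stress-induced partner of JUN proteins that often represses, had the fewest read counts of the members. Its normalized counts stood at 187, 184 and 152 across the controls and 208, 242 and 762 across *Amh-pa1*-/- replicates 1, 2 and 3. The groups did not overlap, though replicate 1 lay close to the highest control. The log2 fold change was 1.21 (standard error 0.49, edgeR, adjusted p = 0.0990) and 0.37 (standard error 0.13, edgeR, adjusted p = 0.0612) without replicate 3. DESeq2's Wald test on the same counts gave an adjusted p of 0.0203.

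*Egr1* (ENSMUSG00000038418, chr18:34859823-34864984), a zinc finger factor induced through SRF, had 2679, 2438 and 2516 normalized counts across control replicates 1, 2 and 3. It had 3495, 3442 and 8916 across *Amh-pa1*-/- replicates 1, 2 and 3, every one above the controls. Its log2 fold change was 1.05 (standard error 0.37, edgeR, adjusted p = 0.0644) with all libraries. In replicates 1 and 2 alone it was 0.45 (standard error 0.05, edgeR, adjusted p = 0.000517), a 1.36-fold difference that was small yet well outside the spread of the controls.

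*Nr4a1* (ENSMUSG00000023034, chr15:101266846-101274792), an orphan nuclear receptor induced by cAMP and growth factors, went the other way in 2 libraries. Normalized counts stood at 1050, 759 and 1001 across control replicates 1, 2 and 3, and 372, 407 and 984 across *Amh-pa1*-/- replicates 1, 2 and 3. Replicates 1 and 2 lay below every control, whose mean was 2.41 times theirs, whereas replicate 3 lay within the control range. With all libraries the log2 fold change was -0.67 (95% interval from -1.56 to 0.22, edgeR, adjusted p = 0.205), and without replicate 3 it was -1.26 (standard error 0.15, edgeR, adjusted p = 0.000692).

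*Ier2* (ENSMUSG00000053560, chr8:84661331-84662852), a short nuclear protein gene of the early response, had 1058, 880.1 and 1007 normalized counts across control replicates 1, 2 and 3. It had 1445, 1446 and 2905 across *Amh-pa1*-/- replicates 1, 2 and 3, all above the controls. The log2 fold change was 0.98 (standard error 0.28, edgeR, adjusted p = 0.0337) and 0.56 (standard error 0.08, edgeR, adjusted p = 0.00187) without replicate 3. Leaving out any 1 control library ended the call (edgeR, adjusted p = 0.0831, 0.0946 and 0.0930 without *Pa1* F/F replicates 1, 2 and 3), as did summing the close pairs (0.103).

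*Dusp1* (ENSMUSG00000024190, chr17:26505590-26508519), a phosphatase that switches off p38, JNK and ERK kinases, had 556, 338 and 533 normalized counts across the controls and 535, 541 and 1425 across *Amh-pa1*-/- replicates 1, 2 and 3. Replicates 1 and 2 fell within the control range and replicate 3 at 2.56 times its top. The log2 fold change was 0.81 (95% interval from -0.18 to 1.80, edgeR, adjusted p = 0.175), and 0.18 (95% interval from -0.30 to 0.66, edgeR, adjusted p = 0.510) without replicate 3.

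**Figure D2:**
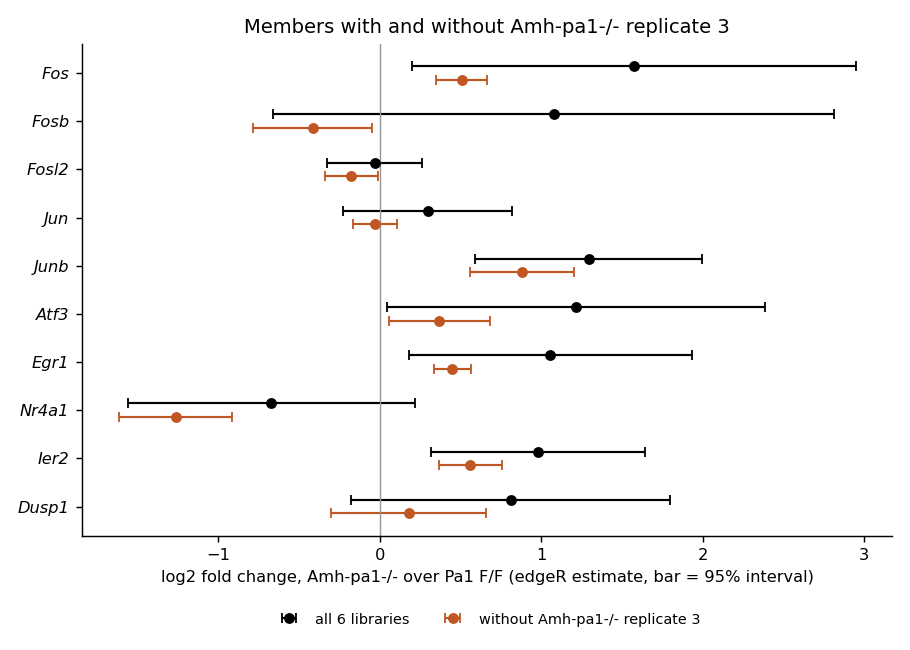
Log2 fold change of *Amh-pa1*-/- over *Pa1* F/F cells (horizontal axis) for each member, as edgeR's estimate with its 95% interval, from all 6 libraries (black) and without *Amh-pa1*-/- replicate 3 (orange). With that library left out the intervals narrow, *Junb* moves from 1.29 to 0.88, *Fosb* and *Jun* turn to -0.41 and -0.03, and *Nr4a1* reaches -1.26.

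Per length of the canonical transcript, *Junb* was the most abundant member in *Pa1* F/F cells at 51.4 ± 9.37 RPKM (reads per kilobase of transcript, scaled to library size; SD, n = 3). It was followed by *Ier2* at 43.6 ± 4.3, *Jun* at 43.3 ± 2.34, *Egr1* at 38.3 ± 2.03 and *Fosl2* at 34.7 ± 2.67 RPKM. Below these lay *Nr4a1* at 24.9 ± 4.26, *Fos* at 21.6 ± 0.78 and *Dusp1* at 16.2 ± 4.15 RPKM. *Fosb* at 7.27 ± 0.42 and *Atf3* at 5.95 ± 0.65 RPKM closed the order. Neighbours whose control libraries overlapped were *Junb* with *Ier2*, *Ier2* with *Jun*, *Egr1* with *Fosl2* and *Nr4a1* with *Fos*. In *Amh-pa1*-/- replicate 3 the order differed, with *Junb* at 195, *Egr1* at 138, *Fos* at 135 and *Ier2* at 133 RPKM, so that *Fos* stood above *Jun* at 76.9 RPKM. In *Amh-pa1*-/- replicates 1 and 2, *Fos* at 29.6 and 31.1 RPKM was still below *Jun* at 42.6 and 41.7 RPKM.

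How far *Amh-pa1*-/- replicate 3 exceeded the other two replicates varied between members. The ratio to their mean was 6.42 for *Fosb*, 4.29 for *Fos*, 3.38 for *Atf3*, 2.65 for *Dusp1*, 2.57 for *Egr1* and 2.53 for *Nr4a1*. It was 2.01 for *Ier2*, just under that for *Junb* (1.996), 1.76 for *Jun* and 1.32 for *Fosl2*. Thus 7 of 10 members stood at 2 times or more, as compared with 2.77% of the 11718 genes averaging 50 normalized counts or more. Among those genes *Fosb* ranked at place 24, *Fos* at 49 and *Atf3* at 76. This is a difference between single libraries of 1 genotype and carries no test.

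**Figure D3:**
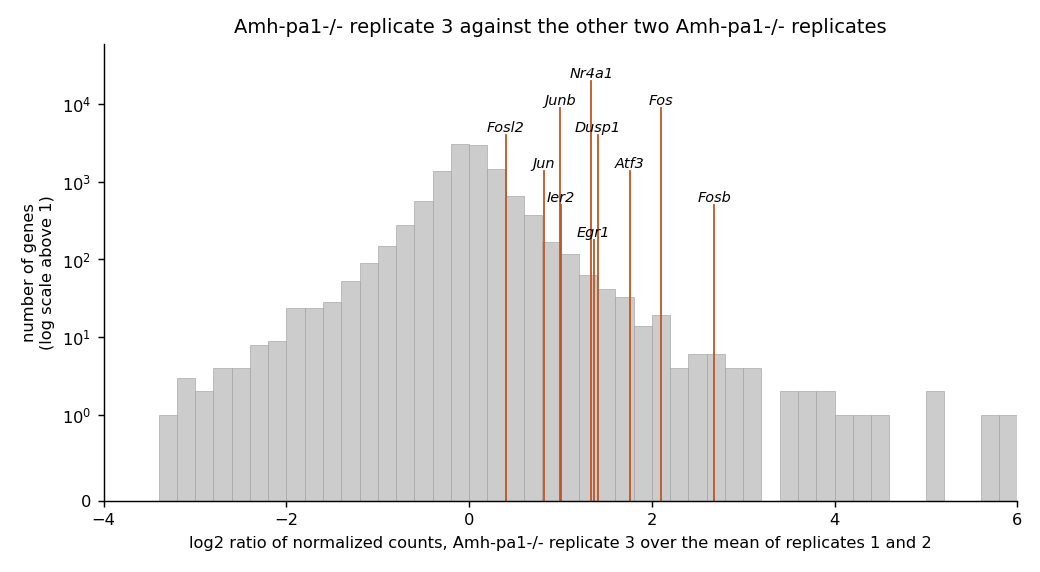
Log2 ratio of normalized counts in *Amh-pa1*-/- replicate 3 over the mean of replicates 1 and 2 (horizontal axis) for genes averaging 50 normalized counts or more, as a histogram with the number of genes on a log scale. Values beyond the right end are held at the last bin, and a few genes with very low ratios lie left of the axis. Orange lines mark the members, all to the right of 0, from *Fosl2* at a ratio of 1.32 to *Fosb* at 6.42.

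The genes whose profiles over the 6 libraries were closest to *Fos* (smallest root-mean-square distance between centred log2 CPM values) were *Atf3* (0.19), *Ptgs2* (0.20), *Hes1* (0.29), *Mcam* (0.29) and *Kdr* (0.29), out of 11717 genes compared. Of these *Atf3* is a member, and *Ptgs2*, which encodes the inducible cyclooxygenase, is another early-response gene, with 403, 386 and 427 normalized counts across the controls and 429, 452 and 2530 across *Amh-pa1*-/- replicates 1, 2 and 3. The closest to *Jun* were *Fkbp2* (0.07), *Atp9b* (0.08), *Rps2-ps6* (0.09), *Sertad3* (0.09) and *Tmem81* (0.09), none of them a member. *Rps2-ps6* is a pseudogene that can share reads with its parent gene.

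The other zipper proteins of the AP-1 family showed no common direction. Of 15 listed, 10 were tested, and 2 rose and 2 fell past the threshold on the adjusted p-value, as compared with 18.2% and 17.1% of all tested genes. *Maf* fell with a log2 fold change of -1.01 (edgeR, adjusted p = 0.00423), while *Mafk* rose by 0.76 and *Maff* by 0.29. Leaving out *Pa1* F/F replicate 1 or 3 left 2 genes of this list past the threshold, beside 22.7% and 23.0% of all tested genes in those fits. *Fosl1*, which encodes FRA-1, had 149, 114 and 163 normalized counts across the controls and 225, 224 and 133 across *Amh-pa1*-/- replicates 1, 2 and 3, and did not pass the test with all libraries (edgeR, adjusted p = 0.183), whereas without replicate 3 its log2 fold change was 0.66 (edgeR, adjusted p = 0.0134). *Jund*, the JUN protein of resting cells, had 209, 198 and 174 normalized counts in control and 145, 106 and 185 in *Amh-pa1*-/- libraries (edgeR, adjusted p = 0.167). Its log2 fold change without replicate 3 was -0.62 (edgeR, adjusted p = 0.0219). In that fit 3 genes of the list rose and 3 fell, beside 43.1% of all tested genes in either direction.

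Of 50 other immediate-early genes 47 were tested. With the adjusted p-value below 0.05, 8 were higher and 9 were lower, beside the same 18.2% and 17.1% of all tested genes, and their median log2 fold change was 0.02. Leaving out *Pa1* F/F replicate 1 left 11 genes of the list past the threshold, beside 22.7% of all tested genes in that fit. Among higher genes were *Gadd45g*, a growth arrest gene (log2 fold change 1.89, edgeR, adjusted p = 0.00254), *Ereg*, an EGF receptor ligand (1.74, adjusted p = 0.000694), *Zfp36*, which destabilizes early transcripts (1.43, adjusted p = 0.0147), and *Cyr61*, a matricellular protein (1.28, adjusted p = 0.000937). Among lower genes were *Nr4a3*, a close relative of *Nr4a1* (-1.26, edgeR, adjusted p = 0.00900), and *Ier5l* (-1.04, adjusted p = 0.0160). *Zfp36* had 349, 467 and 329 normalized counts across the controls and 760.4, 738 and 1585 across *Amh-pa1*-/- replicates 1, 2 and 3, the same arrangement as *Junb*. Of the 47, 9 stood at 2 times or more in *Amh-pa1*-/- replicate 3 over the mean of the other two (19.1%, beside 4.53% of all tested genes). *Egr2*, the close relative of *Egr1*, chosen after its values were seen, had 774, 755 and 744 normalized counts in control and 448, 490.1 and 1019 across *Amh-pa1*-/- replicates 1, 2 and 3, so that, like *Nr4a1*, it lay below every control in replicates 1 and 2. It did not pass the test with all libraries (edgeR, adjusted p = 0.613), and without replicate 3 its log2 fold change was -0.69 (edgeR, adjusted p = 0.000441). Over the whole list 10 genes rose and 14 fell without replicate 3, beside 43.1% of all tested genes in either direction in that fit.

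Upstream, 30 of 31 kinases and factors that drive these genes were tested, of which 5 rose and 8 fell past that threshold, or 5 and 9 without *Amh-pa1*-/- replicate 3, beside 35.3% and 43.1% of all tested genes past it in either direction in the same fits. *Srf*, the factor that binds the CArG box, rose with a log2 fold change of 1.13 (edgeR, adjusted p = 0.000453), from 609.8, 529.6 and 566 to 1226, 1121 and 1379 normalized counts. *Rps6ka5*, which encodes the kinase MSK1, rose by 1.21 (edgeR, adjusted p = 0.00721). *Mapk13*, which encodes p38δ, fell by 1.96 on the log2 scale (edgeR, adjusted p = 0.0106), and *Egfr*, the receptor for the EGF of the medium, by 0.69 (edgeR, adjusted p = 0.0114).

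Of 22 genes described as AP-1 targets, 21 were in the table and 18 were tested. Of these 2 rose and 11 fell past the same threshold, beside 18.2% and 17.1% of all tested genes, with a median log2 fold change of -1.10. Markers of other cell types fell in the same libraries, 8 of 10 tested for macrophages and all 3 tested of the 7 listed for Leydig cells. The Leydig markers *Cyp17a1* and *Insl3* were at or near 0 in both genotypes. The part of other cell types in these values was not tested. With *Amh-pa1*-/- replicate 3 left out, 2 AP-1 targets rose and 12 fell of 19 tested, beside 43.1% of all tested genes in either direction in that fit. *Gja1*, which encodes connexin 43, fell from 1226, 2015 and 1352 normalized counts across control replicates 1, 2 and 3 to 437, 379 and 632 across *Amh-pa1*-/- replicates 1, 2 and 3 (log2 fold change -1.66, edgeR, adjusted p = 0.00336). *Spp1*, which encodes osteopontin, fell by 3.08 on the log2 scale (edgeR, adjusted p = 0.000453), *Ccnd1*, cyclin D1, by 1.95 (adjusted p = 0.00237), and *Sphk1*, sphingosine kinase, by 1.43 (adjusted p = 9.11e-05). *Plau*, urokinase, *Mmp10* and *Timp1* fell by 1.14, 1.12 and 1.09 on the log2 scale, whereas *Plaur*, the urokinase receptor, rose by 1.40 (edgeR, adjusted p = 0.00339). The list was drawn up with earlier results of these data known, and *Gja1* is in it because the study names it.

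**Figure D4:**
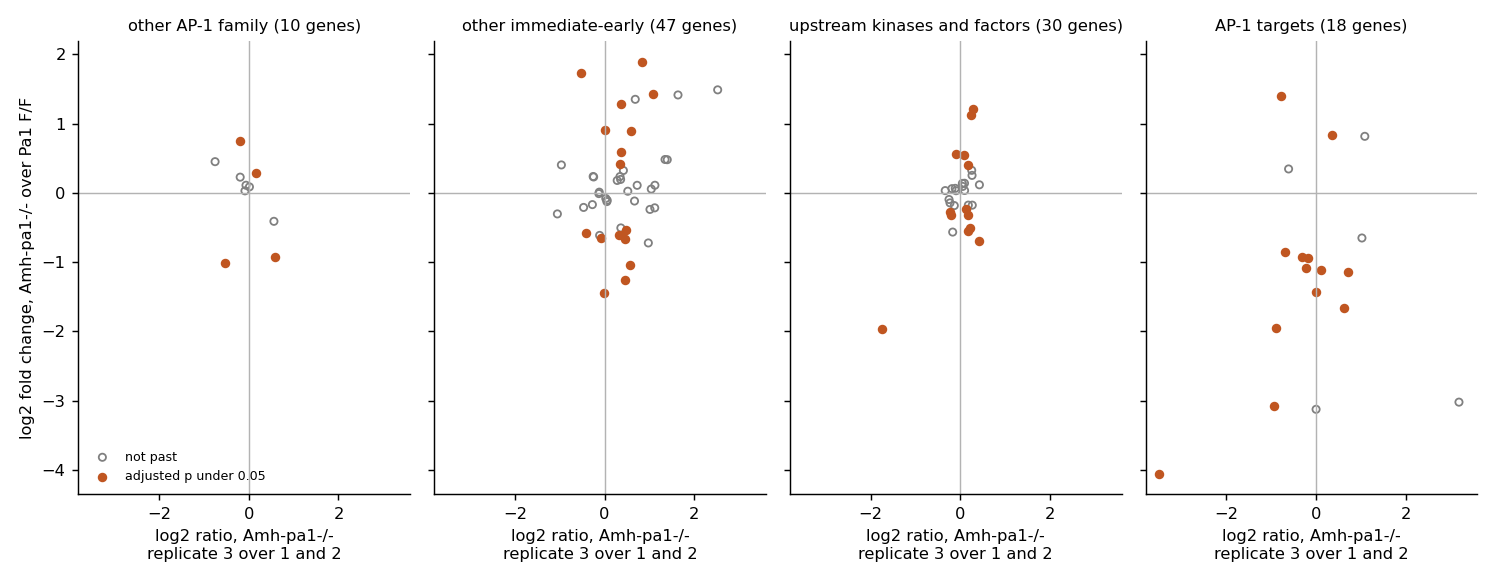
Log2 fold change of *Amh-pa1*-/- over *Pa1* F/F cells (vertical axis) against the log2 ratio of *Amh-pa1*-/- replicate 3 over the mean of replicates 1 and 2 (horizontal axis), 1 point per tested gene of each list, filled at an adjusted p-value under 0.05; 1 gene listed at 0 in replicate 3 is held at the left end. Filled points of the AP-1 targets lie mostly below 0 (11 lower, 2 higher), while those of the other AP-1 family, other immediate-early and upstream panels lie on both sides.

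Other cell types were measured by their markers. All 15 Sertoli cell markers were in the table, and *Sox9*, the factor that sets Sertoli cell fate, had no fewer than 3172 normalized counts in any library. Of 14 tested, 1 was higher and 5 lower, beside 18.2% and 17.1% of all tested genes. The Sertoli markers summed to between 17011 and 17486 CPM in control and between 10349 and 13621 CPM in *Amh-pa1*-/- libraries, most of it *Clu*. *Dmrt1* was higher, *Sox8*, *Inha*, *Gata4*, *Clu* and *Aard* were lower (log2 fold changes -1.85, -1.23, -0.88, -0.69 and -0.27), and the other 8, *Sox9* among them, did not pass the test. Without *Amh-pa1*-/- replicate 3, 4 were higher and 7 lower, beside 43.1% of all tested genes in either direction in that fit. The same shares hold for each marker list that follows. In bulk RNA, fewer cells of a type and less RNA per cell cannot be told apart. The 12 macrophage markers summed to between 129 and 142 CPM in *Pa1* F/F and between 78.5 and 93.4 CPM in *Amh-pa1*-/- libraries. Most of the *Amh-pa1*-/- sums was *Mrc1*, which did not pass the test (log2 fold change 0.17, edgeR, adjusted p = 0.254), while 8 of 10 tested were lower, such as *Cd68* (-1.65, edgeR, adjusted p = 0.00220) and *Lyz2* with 607, 375 and 433 raw counts in control and 25, 29 and 85 in *Amh-pa1*-/- libraries. Without *Amh-pa1*-/- replicate 3, 1 was higher and 10 lower of 11 tested. The 7 Leydig cell markers summed to between 786 and 909 CPM and between 163 and 295 CPM, with all 3 tested, the steroid synthesis genes *Cyp11a1*, *Hsd3b1* and *Star*, lower (log2 fold changes -3.59, -1.99 and -1.59), also without replicate 3, and with *Cyp17a1* and *Insl3* at or near 0 throughout. The 6 peritubular myoid markers summed to between 219.7 and 283 CPM in *Pa1* F/F and between 819 and 1301 CPM in *Amh-pa1*-/- libraries, most of it *Acta2* (log2 fold change 2.15, edgeR, adjusted p = 0.000169), the only one of 5 tested that passed. In *Amh-pa1*-/- replicates 1 and 2 *Myh11*, *Actg2* and *Des* lay below every control, whereas *Cnn1* and *Tagln* overlapped the controls. *Myh11* averaged 190.1 normalized counts there beside 570.0 in control, *Actg2* 59.1 beside 157 and *Des* 45.1 beside 115, and these 3 were lower in the fit without replicate 3. In *Amh-pa1*-/- replicate 3 the smooth muscle genes *Cnn1*, *Actg2*, *Des* and *Myh11* stood at 14.3, 12.4, 10.8 and 8.44 times the mean of the other two replicates. *Acta2*, the most abundant of the list, stood at 1.27 times, and *Tagln*, with only 14 counts there, at 2.25 times. Replicate 3 is the *Amh-pa1*-/- library in which each member was highest. The part of these smooth muscle genes in the members' values was not tested. *Amh* itself, the Sertoli gene whose promoter drives Cre, had 43.9 and 48.4 normalized counts in *Amh-pa1*-/- replicates 1 and 2 and 364.7 in replicate 3, beside 186, 254 and 179 in control cells. The part of this difference was not tested either.

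Heat shock genes, which encode chaperones, summed to between 3156 and 3372 CPM in *Pa1* F/F and between 3255 and 3314 CPM in *Amh-pa1*-/- libraries. In this sum, most of it *Hspa8* and *Hsp90aa1*, *Amh-pa1*-/- replicate 3 lay within the range of the controls. Single genes did not all follow the sum. In replicate 3 *Hspa1b* had 298 normalized counts beside 123, 157 and 127 across the controls, and *Dnajb1* 1529 beside 1148, 1044 and 1147. *Hsp90aa1* and *Dnaja1* also lay above every control there, while *Hspa8*, *Hspd1* and *Hspe1* lay below. Of 10 heat shock genes tested, 2 were higher and 1 lower, the same counts as without *Amh-pa1*-/- replicate 3 (35.3% and 43.1% of all tested genes in those fits). *Hspa1b* was the 1 gene at 2 times or more in replicate 3 over the mean of the other two replicates (4.53% of all tested genes). Leaving out *Pa1* F/F replicate 1 or 3 or *Amh-pa1*-/- replicate 1 left 1 gene of the list past the threshold (22.7%, 23.0% and 24.7% of all tested genes in those fits). The 6 endothelial markers in the table summed to between 116 and 121 CPM in control and between 63.1 and 104 CPM in *Amh-pa1*-/- libraries, and the 10 germ cell markers in the table to between 5.80 and 9.25 CPM and between 2.62 and 7.27 CPM. Of 4 tested in each list, 1 endothelial marker was higher and 2 lower, and 3 germ cell markers were lower, the same counts as without *Amh-pa1*-/- replicate 3. Most of the endothelial sum was *Cdh5*. The endothelial marker *Kdr* did not pass the test, and in *Amh-pa1*-/- replicate 3 it stood at 6.28 times the mean of the other two replicates. In *Pa1* F/F replicate 2, where the chemokine gene *Ccl2* had 4763 normalized counts beside 80.6 and 105 in replicates 1 and 3, the members lay on both sides of the other two controls, with *Junb* above them and *Dusp1* and *Nr4a1* below.

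**Figure D5:**
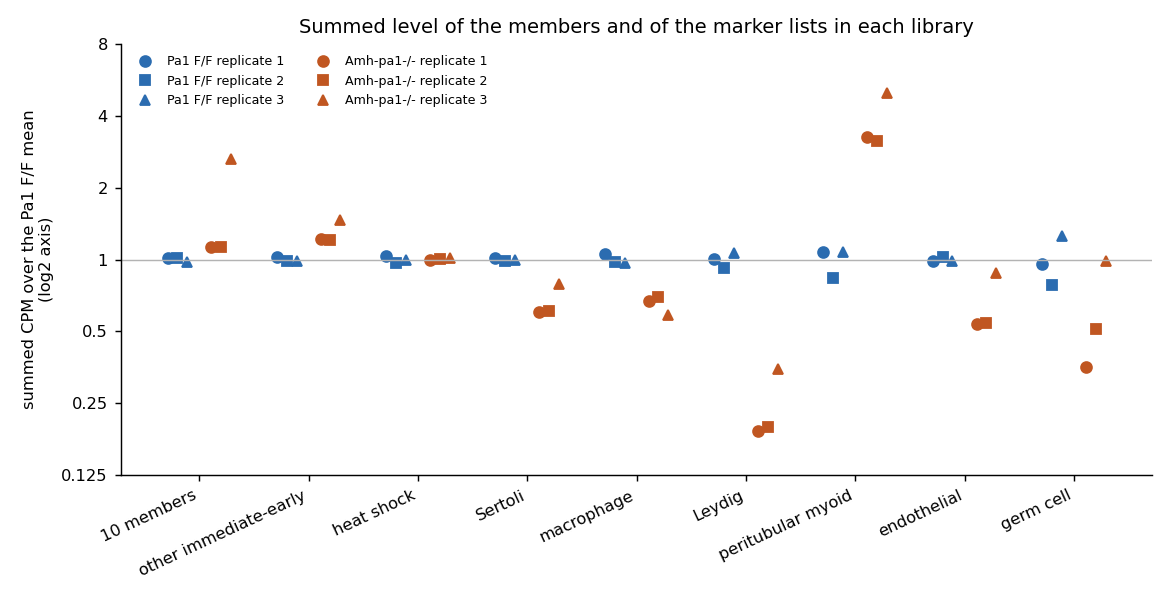
Summed CPM of the members and of each marker list (log2 vertical axis, relative to the mean of the 3 *Pa1* F/F libraries) in every library, with color for genotype and marker shape for replicate. The members sum to between 868 and 904 CPM in control libraries, 1010 and 1007 CPM in *Amh-pa1*-/- replicates 1 and 2 and 2357 CPM in replicate 3. The heat shock sum, most of it *Hspa8* and *Hsp90aa1*, stays near 1.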

How the data were processed

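Reads were aligned by the authors to GRCm38 with HISAT2 2.1.0 and counted per gene with HTSeq 0.6.0, per the submitters' processing notes, and the raw counts were deposited without normalization. The study names the NEBNext Ultra kit for library construction, and the strand setting of the counting is not given in the sources used here. The deposited table also holds the authors' own comparison (mean signal, fold ratio, log2 fold change, p-value and adjusted p-value), which was not used; the study names DEGseq for its test. *Pa1* was not analysed here, so genotypes rest on the labels.

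Counts were filtered with filterByExpr (minimum count 10, minimum total 15), normalized by TMM and tested with edgeR 4.0.16 (glmQLFTest, R 4.3.3), with adjustment over 14919 genes. Normalized counts are counts over the effective library size, times its mean over libraries. Well-covered genes average 100 normalized counts or more in a pair of libraries. Calls used an adjusted p-value under 0.05, and a log2 fold change of at least 1 where stated. Standard errors are the absolute log2 fold change over the square root of F. RPKM used total counts and the canonical transcript length of GENCODE vM39 (lengths only). CPM in marker sums used total counts. The steps were tested on simulated counts. Alternatives used DESeq2 1.42.0, limma 3.58.1, other filters and scalings, a replicate block, each library left out, and close pairs summed.

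Members and lists were chosen with earlier results of these data known. By rule the text names every member, called genes of each list averaging 50 normalized counts or more, at most 8 per list, *Fosl1*, *Jund* and *Gja1*, and the 5 closest profiles to *Fos* and *Jun*. Other genes were chosen after their values were seen.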

Additional observations from a re-analysis of the deposited data

How the results depend on the processing

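With 1 library left out, the number of members called ranged from 0 to 3, beside 9.65% to 13.5% of all tested genes. The number at an adjusted p-value under 0.05 ranged from 0 to 5 (beside 22.7% to 43.1% of all tested genes in the same fits), and the members' median log2 fold change from 0.27 to 1.23. The corresponding numbers past the threshold ranged from 11 to 24 for other immediate-early genes, from 2 to 6 for other AP-1 subunits, from 9 to 14 for upstream genes, from 12 to 14 for AP-1 targets and from 1 to 3 for heat shock genes. No member was called without *Pa1* F/F replicate 1 or 3 (beside 9.65% and 9.78% of all tested genes). In contrast, 3 (beside 10.3% and 10.4% of all tested genes) were called without *Amh-pa1*-/- replicate 1 (*Fos*, *Junb*, *Ier2*) or 2 (*Junb*, *Ier2*, *Egr1*). DESeq2's Wald test called 2 members (10.6% of all genes it tested), and edgeR without a filter on low counts called 5 (7.36%), which were also the 5 at an adjusted p-value under 0.05 (18.4%). edgeR's glmTreat against a log2 fold change of 1 called 0 members (3.61% of all tested genes). At an unadjusted p under 0.05 it had 0 members (8.63% of genes) and the main test 5 (46.0%). With the close pairs summed, which leaves 2 libraries per genotype, 0 members were called or at an adjusted p-value under 0.05 (5.53% and 8.66% of all tested genes), with 5 other immediate-early genes, 1 other AP-1 subunit, 2 upstream genes and 0 heat shock genes past the threshold. With 1 library left out the log2 fold change of *Fosl2* ranged from -0.18 to 0.059, turning sign without *Pa1* F/F replicate 2 or *Amh-pa1*-/- replicate 1 or 2, and it was 0.020 with the close pairs summed. That of *Fosb* ranged from -0.41 to 1.52 and that of *Jun* from -0.028 to 0.46, both turning sign without *Amh-pa1*-/- replicate 3. The cause was not tested. Replicate numbers did not pair the libraries (correlation of deviations 0.10, -0.16 and -0.17 for numbers 1, 2 and 3), and the replicate block left 1 heat shock gene past the threshold and kept the other counts within 1.5 times.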
